A study of Mus musculus with 29 samples.

Results

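A set of 10 genes of connective tissue were followed in cells of the mouse blood-stem-cell niche: Col3a1, Dcn, Fn1, Smoc2, Clec3b, Pi16, Igfbp6, Igfbp5, Timp2 and C4b. They are 10 of the 18194 genes in a table of unique molecular identifier (UMI) counts, each found by the mouse gene ID that maps to its symbol, and all 10 passed the filter on low counts that left 1099 genes for testing. That filter took the libraries of all cell populations together, so a gene could pass through the population where it was high. The genes had been picked because their levels were high in sorted mesenchymal cells of the same libraries, so levels between cell populations are given below as a description, without a test. What that choice did not use, the effect of niche genotype, was tested.

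The niche was sampled by flow cytometry, with endothelial (EC), osteoblastic (OBC) and mesenchymal (MSC) populations kept apart. Each population came from a wild-type niche (WT) and from a niche haploinsufficient for Wnt5a (called Wnt5a here, as in the labels), with 3 libraries in each of the 6 groups and 18 in all. The study also holds 11 libraries of LSK cells regenerated after transplantation (blood progenitors, stem cells among them, that lack lineage markers and carry Sca-1 and Kit), 6 from WT and 5 from Wnt5a niches. All samples carry the strain label 129Ly5.1. Age, sex, the nature of the Wnt5a allele and the number of animals or cells per library are not given in the labels, which also do not say whether libraries came from separate animals, so p-values measure the spread between libraries. Wnt5a itself was not analysed here in the niche libraries, so the niche genotype was taken from the labels alone.

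Fibroblasts build the extracellular matrix from collagen fibrils, the proteoglycans that coat them and adhesive glycoproteins, and they secrete the inhibitors and binding proteins that set how fast matrix is degraded and how growth factors reach cells. In marrow, the cells around vessels and the bone-lining cells share part of this program. In mouse connective tissue, Pi16 and Clec3b are known from fibroblasts of vessel walls and fascia, while Col3a1, Dcn and Fn1 are made by fibroblasts broadly.

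Levels are given as counts scaled to a library's TMM-adjusted total (CPM), with the mean ± SD over 3 libraries. Niche libraries held 10635 to 117989 UMIs. A count of 3 UMIs, taken as the floor of detection in a single library, corresponded to 20.1 to 139 CPM in EC, 53.2 to 133 CPM in MSC and 139 to 323 CPM in OBC, so a low level in OBC was the least well resolved. In these bulk samples, fewer cells of a type and less RNA per cell cannot be told apart. Levels are compared between samples and not between genes.

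In the GENCODE annotation of GRCm38, Col3a1 (chr1:45311538-45349706), Fn1 (chr1:71585520-71653200) and Igfbp5 (chr1:72857932-72874884) lie on chromosome 1. Smoc2 (chr17:14279506-14404790), Pi16 (chr17:29317680-29330593) and C4b (chr17:34728380-34743882) lie on chromosome 17. Dcn is at chr10:97479609-97518143, Clec3b at chr9:123150946-123157432, Igfbp6 at chr15:102144362-102149511 and Timp2 at chr11:118301069-118355740. Counts are per gene and do not tell exons, introns or transcripts apart.

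RefSeq promoters were matched for 5 of the 10 genes (GRCm38.p6, 250 bases before to 50 bases after the start). Those of Col3a1, Pi16 and Timp2 are shown because they span the range of CpG content of these 5, and Timp2 was the gene with reads in every LSK library. Capitals mark CpG dinucleotides.
Col3a1 promoter: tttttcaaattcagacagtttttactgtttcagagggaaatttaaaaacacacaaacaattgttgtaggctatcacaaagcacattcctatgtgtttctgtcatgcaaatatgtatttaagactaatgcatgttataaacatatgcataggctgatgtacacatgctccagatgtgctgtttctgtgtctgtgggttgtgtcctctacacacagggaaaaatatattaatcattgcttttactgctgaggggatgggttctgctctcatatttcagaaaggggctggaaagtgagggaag
Pi16 promoter: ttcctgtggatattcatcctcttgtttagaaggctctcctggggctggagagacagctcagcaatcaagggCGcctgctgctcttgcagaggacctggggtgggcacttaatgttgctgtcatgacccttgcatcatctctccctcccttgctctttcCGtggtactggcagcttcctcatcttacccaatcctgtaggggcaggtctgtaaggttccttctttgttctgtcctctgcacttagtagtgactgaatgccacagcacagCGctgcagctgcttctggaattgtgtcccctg
Timp2 promoter: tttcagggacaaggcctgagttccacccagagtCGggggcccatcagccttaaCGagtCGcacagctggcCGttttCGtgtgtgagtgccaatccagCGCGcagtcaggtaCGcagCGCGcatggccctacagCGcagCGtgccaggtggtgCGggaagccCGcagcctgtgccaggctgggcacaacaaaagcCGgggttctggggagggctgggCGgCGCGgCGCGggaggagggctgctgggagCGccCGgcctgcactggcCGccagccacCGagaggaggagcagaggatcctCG
The Col3a1 window is chr1:45311288-45311587 on the plus strand, the Pi16 window chr17:29318632-29318931 on the plus strand and the Timp2 window chr11:118355362-118355661 on the minus strand. Against the GENCODE spans given above, the Pi16 and Timp2 windows lie wholly inside the gene and the Igfbp6 window lies wholly before it. For these genes the RefSeq start used is thus not the GENCODE gene start. Col3a1 held 0 CpG, Pi16 3, Igfbp6 8, Igfbp5 10 and Timp2 25, against a median of 7 over 32851 RefSeq promoters of the same length, of which 18.4% held as many as Timp2 or more. On either strand, the TATA box letters TATAAA occurred in Col3a1 and Igfbp6 and in 13.6% of all promoters. The GC box letters GGGCGG occurred in Timp2 and in 35.7% of all promoters, and the E-box letters CANNTG occurred in all 5 and in 72.3% of all. The AP-1 letters TGANTCA occurred in 0 of the 5 and in 7.81% of all promoters.

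Before the levels, the labels were checked against cell type markers. The markers went partly against the MSC label, and in Wnt5a partly against the OBC label. The 19 endothelial markers summed to 2.93 to 3.25% of UMIs in MSC WT and 1.73 to 2.29% in MSC Wnt5a, beside 1.85 to 3.70% in EC WT and 2.97 to 3.97% in EC Wnt5a, so MSC WT lay within the range of EC WT. Lepr, the leptin receptor that marks perivascular marrow stroma, had 1 UMI in MSC WT and 2 in MSC Wnt5a, against 18 in OBC WT. Pdgfra, a receptor of fibroblasts and stromal progenitors, had 7 and 8 UMIs in MSC WT and Wnt5a and 0 in both OBC groups. The 10 B and plasma cell markers were at 0.134 to 0.345% in MSC and 0.0242 to 0.150% in the other groups. Of the osteoblast genes, Ibsp had 83 UMIs in OBC WT and 2 in MSC WT. The 13 osteoblast markers summed to 0.339 to 0.724% in OBC WT, overlapping the 0.128 to 0.353% of EC WT. In OBC Wnt5a they summed to 0.123 to 0.267%, within the 0.113 to 0.285% of EC Wnt5a. The 15 Lepr-positive stromal markers were at 0.912 to 1.31% in OBC WT and 0.334 to 0.490% in MSC WT. The part of these other cell types in the levels below was not tested.

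The matrix proteins Col3a1, Dcn, Fn1 and Smoc2 had higher mean levels in MSC than in EC and OBC. Col3a1 encodes the chain of type III collagen, a fibril of soft connective tissue. Its WT libraries held 781, 299 and 669 CPM in MSC, 101, 92.9 and 431 in OBC and 27.8, 37.6 and 33.6 in EC. In the Wnt5a libraries Col3a1 stood at 665, 452 and 354 CPM in MSC, 196, 210 and 176 in OBC and 92.4, 60.9 and 83.4 in EC. All 6 MSC libraries lay above all 6 EC libraries, while OBC WT reached into the MSC range through 1 library of 4 UMIs.

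Dcn encodes decorin, a small leucine-rich proteoglycan that binds collagen fibrils. It held 1668, 1303 and 1320 CPM in MSC WT and 3946, 1463 and 863 in MSC Wnt5a. In OBC, Dcn was at 752 ± 520 CPM in WT and 794 ± 241 in Wnt5a, and in EC at 79.8 ± 26.8 and 232 ± 134. The highest value came from Wnt5a replicate 4, the shallowest MSC library with 19999 UMIs. MSC WT did not overlap either OBC group, while MSC Wnt5a did.

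Fn1 encodes fibronectin, the adhesive glycoprotein that cells bind through integrins. MSC WT held 550, 705 and 595 CPM and MSC Wnt5a 1242, 753 and 531 CPM. OBC WT was split, with 705 CPM in 1 library and 46.5 and 108 in the others, and OBC Wnt5a held 163 ± 88.8 CPM. EC levels were 108 ± 28.5 CPM in WT and 140 ± 79.4 in Wnt5a, and neighbouring groups in the order of Fn1 levels all overlapped.

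Smoc2 encodes a secreted calcium-binding protein of the SPARC family that sits in the matrix. It was at 355, 278 and 391 CPM in MSC WT and 355, 215 and 177 in MSC Wnt5a. OBC WT held 201, 0 and 108 CPM and all 3 OBC Wnt5a libraries had 0 UMIs. EC WT held 3 Smoc2 UMIs over its libraries and EC Wnt5a 5, all in 1 library. Against the OBC Wnt5a floor of 3 UMIs over the group, Smoc2 was at least 3.11-fold higher in MSC Wnt5a.

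**Figure D1:**
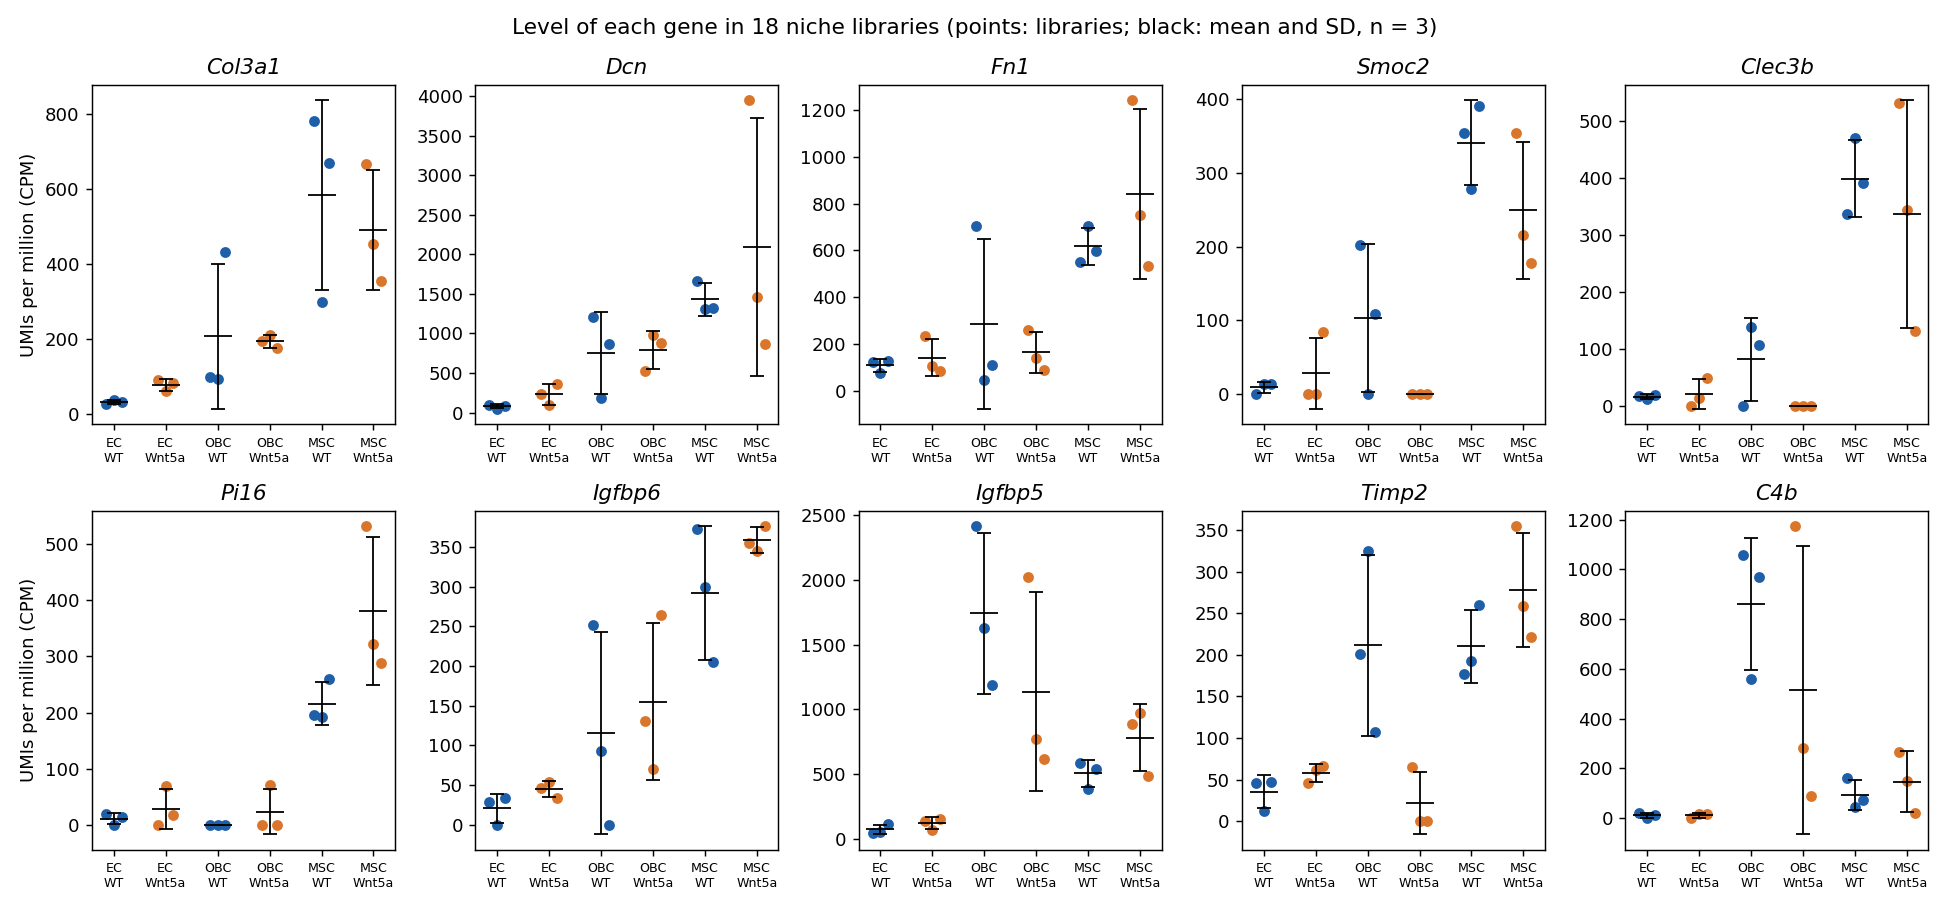
Level of each of the 10 genes (CPM, linear axis from 0, a separate scale per gene) in the 18 niche libraries, in groups of 3; points are libraries and black marks the mean and SD. Col3a1, Dcn, Fn1, Smoc2, Clec3b, Pi16 and Igfbp6 are highest in the MSC groups, Igfbp5 and C4b are highest in OBC, and Pi16 is at 192 to 532 CPM in MSC and lower in every other library.

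Clec3b and Pi16 are the pair known from vessel-wall fibroblasts. Clec3b encodes tetranectin, a lectin-domain protein that binds plasminogen. It held 337, 470 and 391 CPM in MSC WT and 532, 344 and 133 in MSC Wnt5a. EC was at 17.1 ± 4.02 CPM in WT and 21.7 ± 25.6 in Wnt5a. OBC WT held 0, 3 and 1 UMIs and OBC Wnt5a none, which made Clec3b at least 4.07-fold higher in MSC Wnt5a against the group floor. The lowest MSC library, at 133 CPM from 6 UMIs, lay just below the highest OBC WT library, at 139 CPM from 3 UMIs. Tested genes held 63.2 and 66.8% of UMIs in these libraries, so their order hangs on the totals used for scaling.

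Pi16 encodes peptidase inhibitor 16. Its MSC WT libraries held 195, 192 and 260 CPM and its MSC Wnt5a libraries 532, 323 and 288. EC held 10.7 ± 9.58 CPM in WT and 28.4 ± 35.7 in Wnt5a, and OBC had a single UMI in 6 libraries. On the CPM scale used here, Pi16 was the only gene of the 10 whose 6 MSC libraries all lay above all 12 others. It was also the only such gene of 1099 tested (0.091%). That scale uses totals over all genes while the fit used totals over tested genes, and the count was not repeated on the fit's scale. The contrast is the one the genes were picked on, and in OBC the single-library floor of 139 to 323 CPM overlapped the MSC WT range. Over the group, Pi16 was at least 3.66-fold higher in MSC WT than in OBC WT.

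Among the regulators of growth factors and proteases the pattern broke. Igfbp6 encodes an insulin-like growth factor (IGF) binding protein with a preference for IGF2. It was at 292 ± 84.2 CPM in MSC WT and 358 ± 16.2 in MSC Wnt5a, at 115 ± 127 and 155 ± 99.1 in OBC, and at 20.5 ± 17.96 and 44.3 ± 10.1 in EC. MSC WT overlapped both OBC groups, and MSC Wnt5a lay above all 6 OBC libraries.

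Igfbp5, a binding protein of bone and connective tissue that holds IGFs in the matrix, went against the label of the set. OBC WT held 2417, 1626 and 1184 CPM and MSC WT 585, 385 and 539. In Wnt5a libraries, OBC had 2023, 770 and 615 CPM and MSC 887, 968 and 487. OBC WT lay above MSC WT without overlap, and the Wnt5a groups overlapped. EC was lowest, at 70.2 ± 38.1 CPM in WT and 119 ± 44.2 in Wnt5a.

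C4b, complement component 4, was likewise highest in OBC. It held 1058, 558 and 969 CPM in OBC WT and 160, 42.7 and 74.4 in MSC WT. OBC Wnt5a spread from 87.9 to 1175 CPM, and MSC Wnt5a from 22.1 to 266. EC was at 10.7 ± 9.58 CPM in WT and 10.6 ± 9.24 in Wnt5a. The near-identical neighbour C4a, with 35 UMIs to C4b's 101 over the niche, was also highest in OBC WT at 407 ± 130 CPM against 37.0 ± 29.5 in MSC WT, and how reads were divided between the copies is not given, so the C4b level is uncertain.

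Timp2, an inhibitor of matrix metalloproteinases, was shared by MSC and OBC in the WT niche. MSC WT held 177, 192 and 260 CPM and OBC WT 201, 325 and 108. EC WT was at 35.3 ± 19.7 CPM and EC Wnt5a at 57.9 ± 10.6. In OBC Wnt5a, Timp2 had a single UMI in 3 libraries, as described with the genotype effects.

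Set against each other within a genotype, all 10 genes were higher in MSC than in EC. The log2 differences in level ran from 2.42 for Timp2 to 4.96 for Smoc2 in WT (median 3.76, with -0.08 over all tested genes). In the Wnt5a niche they ran from 2.05 for Timp2 to 3.53 for Clec3b (median 2.88, with a median of 0.00 over all genes). Against OBC, 8 of 10 were higher in MSC in each genotype and Igfbp5 and C4b were lower. Those medians were 1.28 in WT and 1.57 in Wnt5a, with groups at 0 UMIs set to the floor, beside 0.14 and 0.21 over all genes. The Igfbp5 log2 difference was -1.58 (SE 0.41) in WT and -0.46 (SE 0.43) in Wnt5a, and that of C4b -2.89 (SE 0.63) and -1.93 (SE 0.69). These differences describe how the genes were chosen and carry no test.

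**Figure D2:**
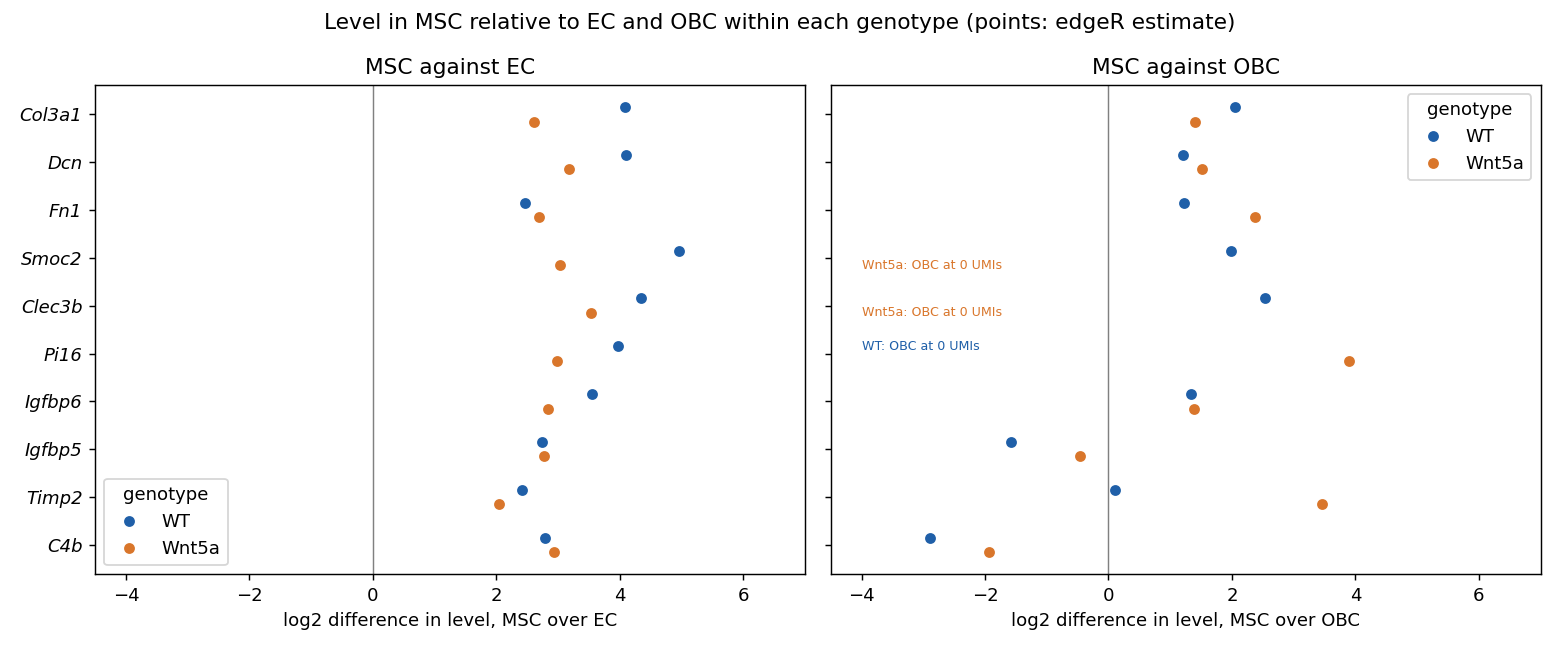
Log2 difference in level of MSC over EC (left) and MSC over OBC (right) for each gene within WT (blue) and Wnt5a (orange); points are edgeR estimates, and comparisons with a group at 0 UMIs are named in place of a point. All 10 genes lie above 0 against EC, while Igfbp5 and C4b lie below 0 against OBC in both genotypes.

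Across the 18 libraries, 44 of the 45 pairs of genes had a positive correlation of log2 CPM, with a median Pearson r of 0.66. The points share sort gate, depth and library composition, and r describes these libraries only. The closest pairs were Igfbp5 with C4b (r = 0.89) and Col3a1 with Dcn (r = 0.89), and Pi16 with C4b was the only negative pair (r = -0.12). Among tested genes outside the set, the 8 most like the set's mean profile were Gsn (r = 0.85), Igha (0.83), Fstl1 (0.81), Fbn1 (0.76), C3 (0.76), Lrp1 (0.75), Igkc (0.67) and S100a4 (0.65). Gsn encodes the actin-severing protein gelsolin, Fbn1 the fibrillin of elastic microfibrils, and Igha and Igkc are antibody chains of plasma cells. Gsn stood at 4056 ± 922 CPM in MSC WT against 484 ± 117 in EC WT and 1993 ± 1223 in OBC WT. Igha stood at 1044 ± 314 CPM in MSC WT against 32.7 ± 30.0 in EC WT and 225 ± 181 in OBC WT.

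**Figure D3:**
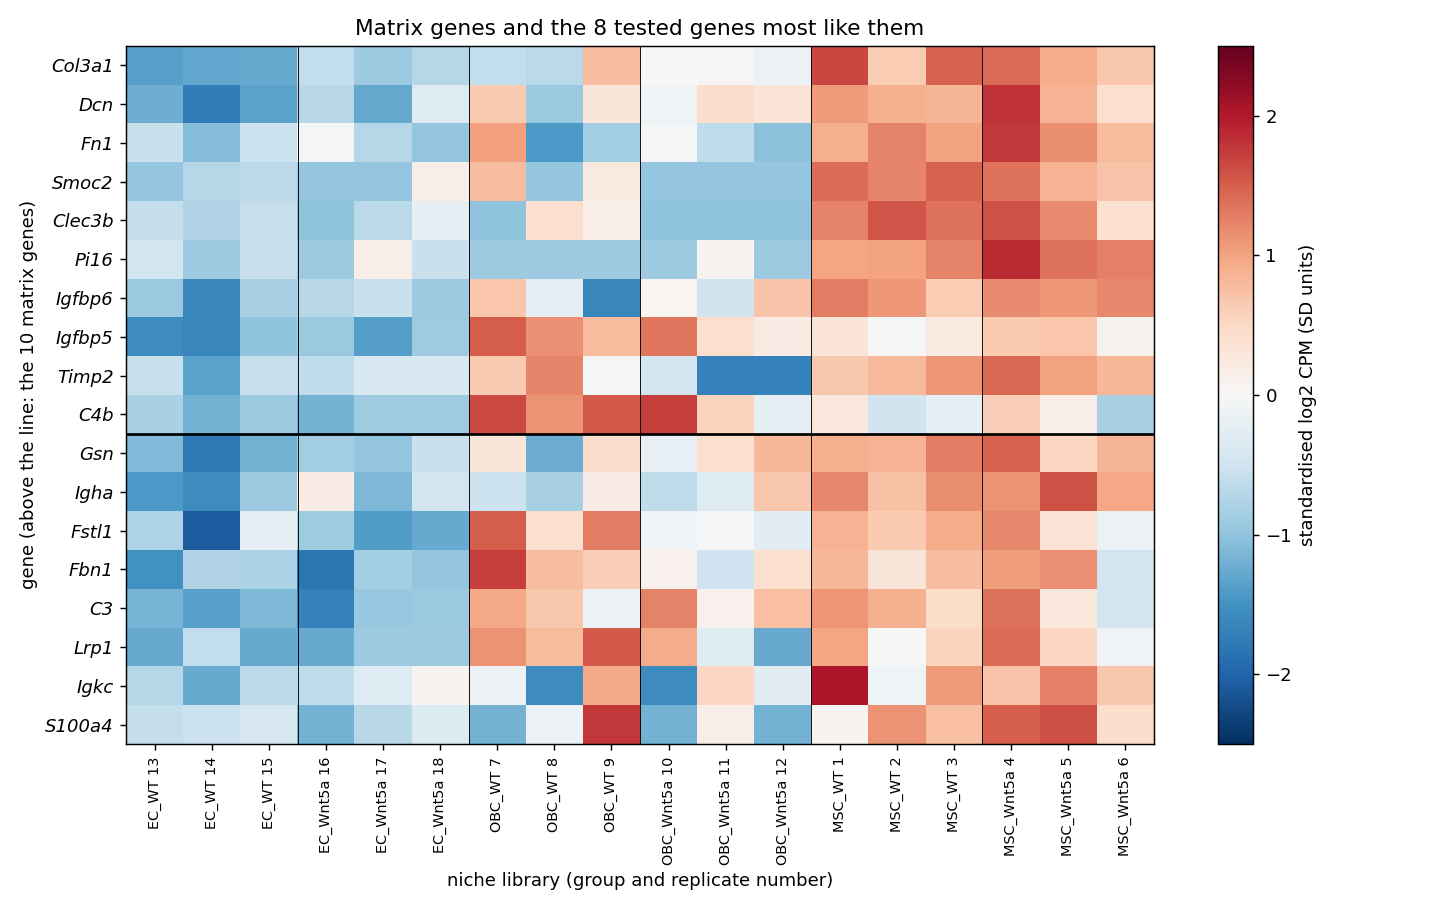
Standardised log2 CPM (SD units, red high, blue low) of the 10 genes above the line and the 8 most similar tested genes below it, in the 18 niche libraries. The MSC columns are red for most rows, the EC columns blue, and Igfbp5 and C4b are reddest in OBC.

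Other genes of the same families did not all share the MSC level. For MSC against the mean of EC and OBC, edgeR called 4.82% of all 1099 genes higher and 1.91% lower at an adjusted p under 0.05. In the list of elastic fibre and glycoprotein matrix genes, 2 of 8 tested genes passed as higher and none as lower. These were Fbln2, an elastic-fibre fibulin (log2 difference 1.26, SE 0.33, edgeR adjusted p = 0.0153), and Fstl1, a secreted SPARC-family glycoprotein (1.03, SE 0.32, adjusted p = 0.0435). The comparison averages EC and OBC, and a gene that passed could be as high in 1 of them. Fbln2 was at 541 ± 106 CPM in MSC WT, 385 ± 121 in EC WT and 33.6 ± 58.1 in OBC WT. Fstl1 was at 323 ± 39.8 CPM in MSC WT and 474 ± 172 in OBC WT. Of the matrix-processing genes, 1 of 8 passed, the protease inhibitor Timp4 (0.96, SE 0.24, edgeR adjusted p = 0.0110), while Timp3 did not (0.74, SE 0.24, adjusted p = 0.0567). Timp4 was at 1371 ± 225 CPM in MSC WT, beside 1460 ± 420 in EC WT and 202 ± 57.3 in OBC WT. Of the complement genes, C3 passed (1.497, SE 0.43, edgeR adjusted p = 0.0293) and Serping1 did not (0.94, adjusted p = 0.212). C3 was at 235 ± 67.1 CPM in MSC WT, 214 ± 98.5 in OBC WT and 17.1 ± 4.02 in EC WT, so MSC and OBC overlapped. None of 3 collagens, 2 proteoglycans or 3 IGF genes passed. Col1a1 was at 322 ± 60.1 CPM in MSC WT and 5135 ± 2567 in OBC WT, and Igfbp4 at 178 ± 117 and 1212 ± 709. The adventitial fibroblast markers gave 2 of 7 higher, Gsn and the calcium-binding S100a6. The Lepr-positive stromal markers gave 0 of 9 higher and 4 lower, among them Cxcl12, the chemokine that retains stem cells in marrow (-0.80, SE 0.25, edgeR adjusted p = 0.0459). Of the endothelial markers, 3 of 17 passed as higher and 1 as lower, and of the B and plasma cell markers, 3 of 4 passed as higher.

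Whether a niche with less Wnt5a changed these genes was tested within each population. In MSC, 0 of 10 genes passed at an edgeR adjusted p under 0.05 (0.455% of all genes did), and no unadjusted p was under 0.05 (18.5% of all genes had one). Of the 10 estimates, 7 were above 0, with a median log2 fold change of 0.26 beside -0.03 over all genes. Under RLE scaling the median of all genes in MSC shifted by -0.20 and the median of the 10 was 0.06 with 6 above 0. Without Wnt5a replicate 4 the median was -0.17 and 4 were above 0.

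In MSC, Pi16 had the highest estimate (log2 fold change 0.64, SE 0.62, 95% interval -0.61 to 1.89, edgeR adjusted p = 0.622). Its 3 Wnt5a libraries all lay above the 3 WT libraries, as did those of 15.8% of all tested genes. Smoc2 had the lowest (-0.64, SE 0.65, 95% interval -1.96 to 0.67, edgeR adjusted p = 0.639), and its groups overlapped. Col3a1 was at -0.43 (SE 0.41) and Clec3b at -0.45 (SE 0.54). Dcn, Fn1 and Igfbp5 were at 0.39 (SE 0.47), 0.28 (SE 0.44) and 0.49 (SE 0.41). The intervals allow changes of more than 1 log2 unit in at least 1 direction for 10 of the 10 genes, so equal levels were not shown.

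The summed share of the 10 genes showed how the MSC libraries spread. It was 0.579, 0.522 and 0.555% of UMIs in the WT libraries. The Wnt5a libraries held 1.03, 0.507 and 0.335%. The first of these, replicate 4, had an exact 95% counting interval of 0.895 to 1.18%, apart from the other MSC libraries. The other Wnt5a libraries were below all WT libraries. For replicate 5, at 0.507%, the counting interval of 0.446 to 0.575% overlapped those of the WT libraries. The endothelial markers, 17 of which were tested in MSC, had 0 estimates above 0 and a median of -0.64, the neutrophil gene S100a9 passed as higher (1.82, SE 0.41, edgeR adjusted p = 0.0169), and the part of these cells in the MSC comparison was not tested.

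**Figure D4:**
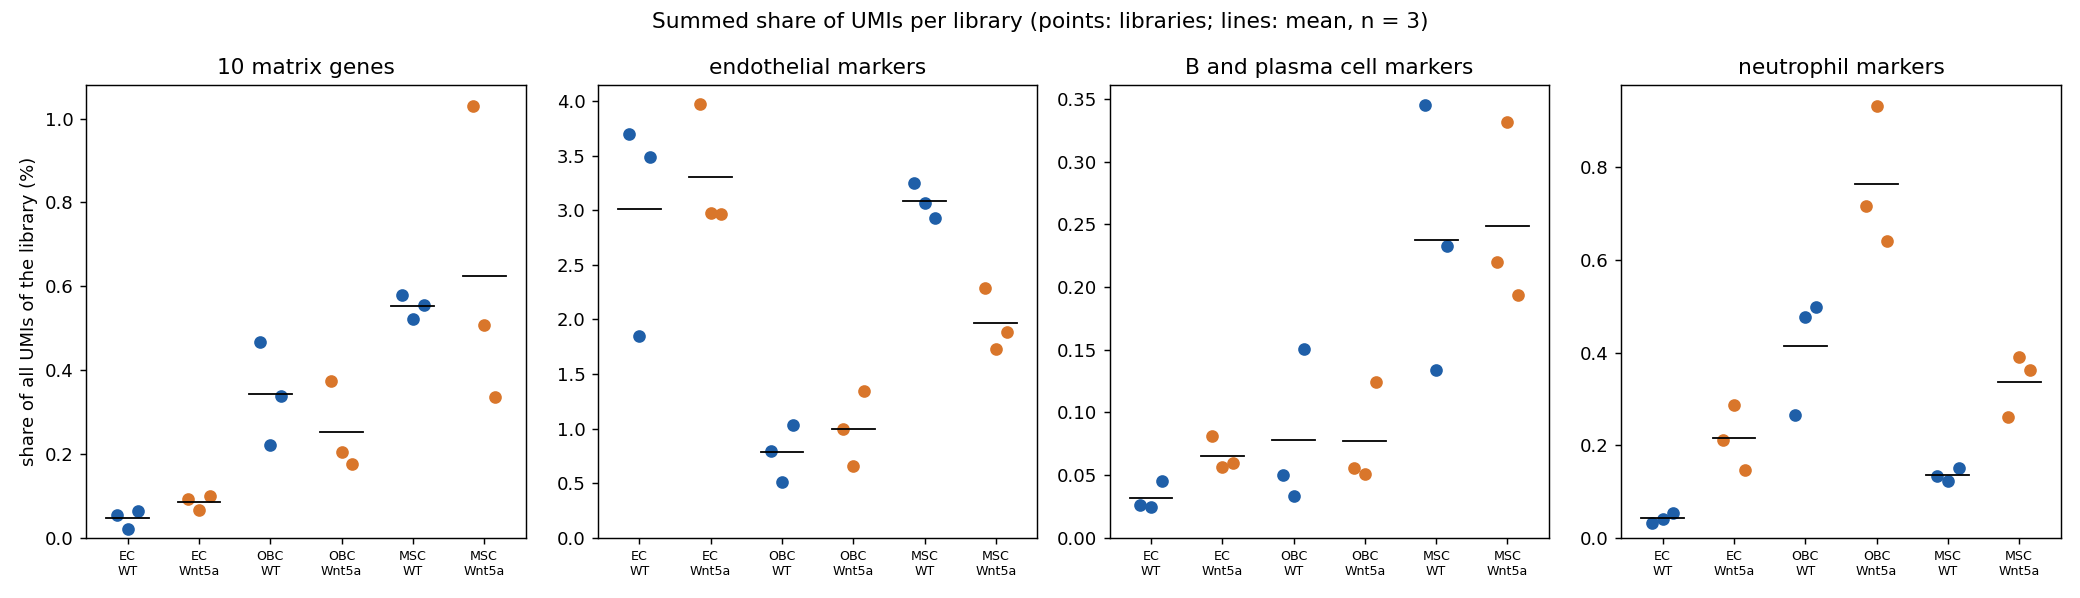
Summed share of UMIs (%) per niche library for the 10 matrix genes and for 19 endothelial, 10 B and plasma cell and 12 neutrophil markers; points are libraries, lines are means of 3. The matrix genes reach 1.03% in MSC Wnt5a replicate 4 and stay between 0.522 and 0.579% in MSC WT.

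In EC, where these genes were sparse, all 10 estimates were above 0, from 0.05 for Fn1 to 1.61 for Pi16. The Pi16 estimate rested on 9 UMIs in Wnt5a replicate 17 and was -0.0682 without that library. Their median log2 fold change was 0.74, beside -0.05 over all genes. None passed at an edgeR adjusted p under 0.05 (0.364% of all genes did), and 1, Dcn, had an unadjusted p under 0.05, close to the 8.10% of all genes that had one (log2 fold change 1.31, SE 0.63, 95% interval 0.02 to 2.59, adjusted p = 0.589). The Dcn libraries held 102, 50.1 and 87.3 CPM in WT and 231, 99.0 and 367 in Wnt5a, which overlapped, and without Wnt5a replicate 18 the Dcn estimate was 0.65. Col3a1 was at 1.05 (SE 0.62, edgeR adjusted p = 0.645), and its 3 Wnt5a libraries lay above the 3 WT libraries, as did those of 6.64% of all tested genes. The summed share was 0.0553, 0.0210 and 0.0636% in EC WT and 0.0917, 0.0674 and 0.0998% in EC Wnt5a, without overlap. The lowest, WT replicate 14, was the library with 24.5% of UMIs from 8 erythroid markers. Without it, 8 of 10 estimates were above 0 and the median was 0.34. Without Wnt5a replicate 17, 8 of 10 were above 0 (median 0.67), and without the filter on low counts 9 of 10. The filter was set over all niche libraries. With EC libraries alone it kept 3 of the 10 genes, and all 3 estimates were above 0 (median 0.52).

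Markers of neutrophils and of B and plasma cells were also at a higher summed level in EC Wnt5a than in EC WT. Other blood cell markers overlapped between the genotypes. The 8 erythroid markers summed to 1.92 to 24.5% in EC WT and 3.84 to 6.36% in EC Wnt5a, with 0 of 8 estimates above 0. The 10 macrophage markers summed to 0.00945 to 0.0483% in EC WT and 0.0108 to 0.0515% in EC Wnt5a. The 12 neutrophil markers summed to 0.0324 to 0.0542% in EC WT and 0.147 to 0.288% in EC Wnt5a, and 4 of the 5 tested passed as higher. The 10 B and plasma cell markers summed to 0.0242 to 0.0449% in EC WT and 0.0562 to 0.0809% in EC Wnt5a, without overlap. Of the 4 tested, 0 passed, with Igha at 1.73 (SE 0.71, edgeR adjusted p = 0.483). Of 8 other matrix-processing genes, 2 estimates were above 0 (median -0.17), and of 8 elastic fibre and glycoprotein genes 3 were (median -0.08). Of 7 adventitial fibroblast markers 2 were above 0 (median -0.27). Other related lists leaned up, with 7 of 9 Lepr-positive stromal markers above 0 (median 0.29). So were 2 of 2 complement genes (median 0.51) and 2 of 3 IGF genes (median 0.48). Of 3 collagens 2 were above 0 (median 0.01), and of 2 proteoglycans 1 was (median 0.20). The part of these blood cells in the result for the 10 genes was not tested.

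In OBC, 0 of 10 genes passed at an edgeR adjusted p under 0.05 (1.27% of all genes did). Timp2 was the only one of the 10 with an unadjusted p below that level, as 8.37% of all genes had. Its WT libraries held 4, 7 and 1 UMIs and its Wnt5a libraries 1, 0 and 0. The fitted log2 fold change was -3.12 (SE 1.22, 95% interval -5.57 to -0.68, edgeR adjusted p = 0.333). From the counts alone the WT level was 9.70 times the Wnt5a level, with a 95% counting interval of 1.44 to 415. In CPM the groups did not overlap, as for 6.46% of all tested genes in that direction. In UMIs they tied, with 1 in WT replicate 9 (108 CPM) and 1 in Wnt5a replicate 10 (65.3 CPM). Both lay below the floor of 3 UMIs, so the gap in CPM came from library depth.

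For Clec3b, Smoc2 and Pi16 an OBC group was at 0 UMIs and no fitted fold change is given. Clec3b had 4 UMIs in OBC WT and 0 in Wnt5a, and Smoc2 5 and 0. The counting intervals of the ratio of Wnt5a to WT reached 1.87 for Clec3b and 1.35 for Smoc2, so no difference was detectable at this depth. Of the 7 genes with UMIs in both OBC groups, 3 estimates were above 0 and 4 below (median -0.63, beside -0.01 over all genes). The count and median depended on the setting. Without OBC WT replicate 8, 0 were above 0 and 7 below (median -0.72). Without OBC WT replicate 7, 3 were above 0 (median -0.09), as with limma voom (median -0.09). With OBC libraries alone, 3 of the 7 remained after the filter and 0 were above 0 (median -0.80). Igfbp5 was at -0.63 (SE 0.43, edgeR adjusted p = 0.709) and C4b at -0.65 (SE 0.60, adjusted p = 0.819). Leaving out 1 library moved Igfbp5 between -1.41 and -0.30 and C4b between -2.18 and -0.24, with the lowest value of each reached without Wnt5a replicate 10. The 12 neutrophil markers summed to 0.264 to 0.498% in OBC WT and 0.641 to 0.933% in OBC Wnt5a. The 13 osteoblast markers, Spp1 among them, summed to 0.339 to 0.724% and 0.123 to 0.267%. The part of these cell types in the OBC values was not tested. In the same comparison 3 genes of bone matrix fell by edgeR, all listed outside the set. They were the type I collagen chains Col1a1 (-1.89, adjusted p = 0.0122) and Col1a2 (-1.72, adjusted p = 0.0430) and Spp1, which encodes osteopontin (-2.55, adjusted p = 0.0411). Col3a1, the collagen of the set, was at 0.22 (SE 0.75, edgeR adjusted p = 0.965), and the difference between these collagens was not tested.

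**Figure D5:**
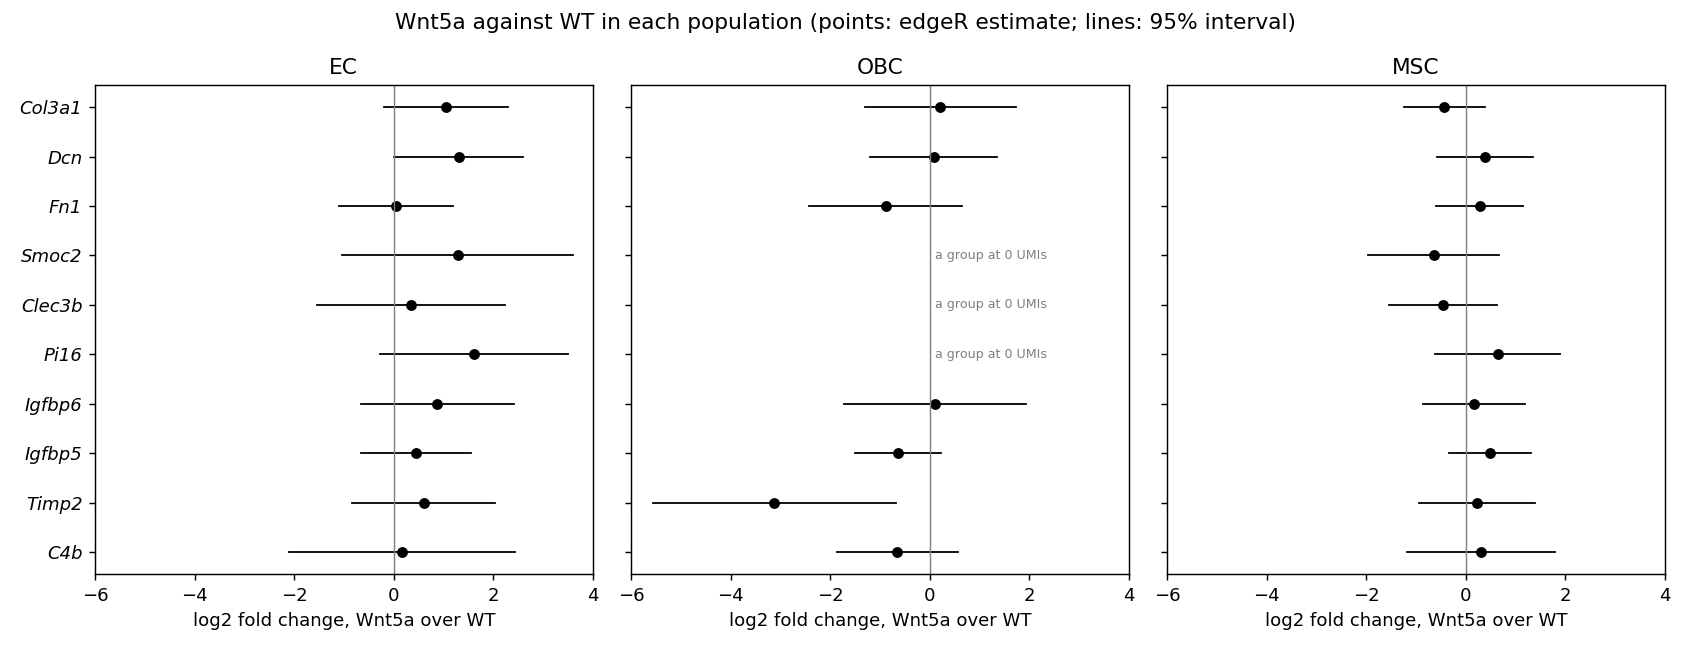
Log2 fold change of Wnt5a over WT in EC, OBC and MSC for each gene; points are edgeR estimates from 3 against 3 libraries, lines their 95% intervals, and genes with a group at 0 UMIs have no point. All EC points lie above 0, the MSC points lie between -0.64 and 0.64, and Timp2 in OBC is at -3.12.

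Whether the genotype effect differed between populations was tested as an interaction. By edgeR, 0 of 10 genes passed (0.546% of all genes did), and of the 10 Timp2 alone had an unadjusted p under 0.05 (edgeR adjusted p = 0.521), near the 8.37% of all genes. Averaged over the 3 populations, 0 of 10 passed (3.09% of all genes did) and 0 had an unadjusted p under 0.05 (16.6% of all genes had). The nearest with UMIs in every group was Dcn (log2 fold change 0.59, SE 0.33, edgeR adjusted p = 0.384). The IGF-binding relative Igfbp7, which binds IGFs weakly and is made by endothelium, passed that average as lower (-0.83, SE 0.25, edgeR adjusted p = 0.0489).

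In LSK cells most of the 10 genes were near or at 0, while Timp2 had reads in all 11 libraries. Col3a1 had reads in 3 of 11 libraries, Dcn and Smoc2 in 2, and Clec3b in 1, with at most 3 reads in a library. Fn1 and Pi16 had reads in 10 libraries, at most 30 and 4. Igfbp5 had reads in 5 libraries and Igfbp6 in 6, at most 35 and 9. Only Timp2 and C4b passed the filter. Timp2 ranged over 46.2, 62.1 and 69.5 CPM (lowest, median, highest) in the WT libraries and held 66.2, 41.1, 27.8, 16.5 and 60.4 CPM in the Wnt5a libraries. Its log2 fold change was -0.50 (SE 0.31, 95% interval -1.16 to 0.16, edgeR adjusted p = 0.404). That of C4b was -0.12 (SE 0.80, edgeR adjusted p = 0.954), from 0 to 32 reads a library. By edgeR, 0 of the 2 passed, as did 0.0229% of all 13098 tested genes, and 0 had an unadjusted p under 0.05.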

How the data were processed

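The authors deposited UMI counts per gene for the niche and raw read counts per gene for LSK. Niche cDNA was barcoded and pooled, LSK libraries were Smart-seq2, and both used Nextera XT, per the labels' protocols. STAR, featureCounts and mm10 (GRCm38) are named in the submitters' processing notes; UMI collapsing, annotation release and strand use are steps not given in the sources used here. Reads of overlapping genes (Gm47302 on Col3a1, Cep295nl on Timp2) may be shared. The niche table's 28 spike-in entries were left out.

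All 18 niche libraries entered 1 edgeR 4.0.16 quasi-likelihood fit (R 4.3.3, TMM, filterByExpr with minimum count 10 and minimum total 15, 6 group means); the 11 LSK libraries (1254553 to 5775459 reads) had their own. CPM use totals over all genes with the TMM factors of the fit, which were set on tested genes only. Tested genes held 54.9 to 70.0% of UMIs in a niche library. Orders and overlaps in CPM thus need not hold on the scale of the fit. SE is the log2 fold change over the square root of F. Adjusted p-values are Benjamini-Hochberg over all genes tested, with a threshold of 0.05. Correlations used log2 CPM with a prior count of 2. Clopper-Pearson 95% intervals and the 3-count floor cover counting error only. The fit was tested on simulated data. Alternatives were RLE scaling, no filter, haemoglobin genes left out, DESeq2 1.42.0, limma voom 3.58.1, each population alone and each library left out. Named genes were the 10 members, the 8 genes most like their mean, up to 4 genes per list by smallest p in 2 MSC comparisons, list genes passing a genotype test, and family relatives. Members and lists were chosen with earlier results of these data known.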

Additional observations from a re-analysis of the deposited data

Results flagged for a closer look

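Values in LSK libraries stood apart from the rest of their group for 6 of the 10 genes, by a gap larger than Dixon's critical value. Chance exceeds that value in about 1 in 20 groups of continuous values. For 6 of the 8 values every other library of the group was at 0, so any lone count is flagged and that rate does not apply. Col3a1 was at 0.620 CPM in WT replicate 5, from 2 reads. Dcn was at 0.285 CPM in WT replicate 4 and 0.605 CPM in Wnt5a replicate 3, from 1 read each. Clec3b was at 0.794 CPM in WT replicate 1, from 1 read. Smoc2 was at 2.38 CPM in WT replicate 1, from 3 reads, and at 0.605 CPM in Wnt5a replicate 3, from 1 read. Igfbp6 was at 1.21 CPM in Wnt5a replicate 3, from 2 reads. Igfbp5 was at 9.93 CPM in Wnt5a replicate 2, from 35 reads, with the next library of its group at 2.38 CPM. The niche groups of 3 libraries were too small for this comparison.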

How the results depend on the processing

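No paired analysis was run, because the niche libraries share no replicate number and the LSK labels hold no pairing. Whether niche libraries of different populations came from the same animals is not known. The fit, with its average and interaction tests, treated all 18 as independent. The count of the 10 genes past the threshold was 0 in every genotype comparison, with edgeR and under each alternative run, including DESeq2 and limma voom. The interaction was run with edgeR alone, not with DESeq2 or limma voom. The median log2 difference of MSC over the other populations, over the 7 genes with UMIs in every group (2.19), kept its direction. That direction follows from how the genes were picked and is no test. Single estimates near 0 changed sign. Igfbp6 in MSC was -0.0434 under RLE scaling and -0.0434 with DESeq2, and C4b in MSC -0.0164 with limma voom. Without the filter, Fn1 in EC was -0.0450 and Dcn in OBC -0.0146, and Dcn was -0.0871 with OBC libraries alone. With each library left out in turn, estimates that changed sign ranged as follows. In EC, Fn1 ran from -0.21 to 0.29, C4b from -0.23 to 0.56, Pi16 from -0.0682 to 2.01 and Clec3b from -0.43 to 0.80. In MSC, C4b ran from -0.25 to 0.93, Igfbp6 from -0.0653 to 0.35, Fn1 from -0.0818 to 0.52 and Dcn from -0.44 to 0.76. In OBC, Col3a1 ran from -0.17 to 0.93, Fn1 from -1.52 to 1.33, Dcn from -0.47 to 0.87 and Igfbp6 from -0.47 to 1.17. C4b in LSK ran from -1.01 to 0.16 over the 8 runs, of 11, that gave it an estimate. In MSC against the other populations, C4b ran from -0.0689 to 0.64. The cause was not tested. Over all genes, the 5 calls of Wnt5a against WT in MSC became 0 without the filter, 9 with RLE scaling, 11 with limma voom, 45 with DESeq2 and 71 of 705 genes with MSC libraries alone, and lay between 0 and 42 with a library left out. The 34 calls of the average over populations became 14 without the filter. The 4 calls in EC became 2 with EC libraries alone, and the 14 in OBC 9 with limma voom. Interaction calls went from 6 to 10 without the filter. The 3 LSK calls became 343 without the filter, 678 with DESeq2 and 0 with limma voom. Depth is a limit: in EC and OBC, Clec3b, Pi16, Smoc2 and Timp2 had at most 9 UMIs in a library.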
